A study of Mus musculus with 24 samples.

Results

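Messenger RNA from the 10 genes Dusp4, Dusp5, Dusp6, Spry1, Spry2, Spry4, Spred1, Etv1, Etv4 and Etv5 was followed in the distal colon of mice with T cell transfer colitis. The genes were chosen by name, as known feedback and output genes of the ERK pathway, with earlier results of these data in view, and they are 10 of the 43280 gene symbols in the count files. All 10 had counts in all 24 libraries and all 10 were among the 14773 genes tested. Every mouse was C.B-17/Icr-scid/scid (SCID, without its own T or B cells), and the SCID mice were female and 7 weeks old at purchase. The 4 Normal samples came from untreated mice, for which no day of tissue collection is stated. Mice of the other 5 groups received 200000 CD4+ T cells by vein on day 0. Those cells came from BALB/c spleens cultured with concanavalin A and interleukin-2. The recipients were sorted into groups by diarrhea score on day 17. From that day, 2 groups received a MEK inhibitor by mouth, daily until day 27, in microparticles with an enteric coat, at 0.3 mg/kg (MEKi 0.3) or 1 mg/kg (MEKi 1). A further 2 groups received an isotype control antibody (Isotype) or an antibody to tumour necrosis factor (anti-TNF) into the peritoneum, 0.1 mg per mouse every 4 days. The Vehicle group received 0.5% methylcellulose. The colon was taken on day 28, so the last oral dose preceded it by a day. Each group had 4 libraries, numbered 1 to 4, and no label says whether each came from a separate mouse, so p-values measure only the spread between these samples. No group received microparticles without inhibitor, and methylcellulose is recorded for Vehicle alone, so the inhibitor and its carrier cannot be told apart.

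The ERK pathway passes signals from growth factor and antigen receptors through RAS, RAF and MEK to the kinase ERK, which raises transcription of immediate early genes. Among the genes that ERK activity induces are its own brakes: the phosphatases Dusp4, Dusp5 and Dusp6 remove phosphate from ERK, and the Sprouty proteins and Spred1 act upstream, between the receptor and RAF. Etv1, Etv4 and Etv5 are ETS transcription factors of the PEA3 group that act downstream of ERK, and loss of transcripts of these gene families is a widely used readout of MEK inhibition in cell culture. In the gut wall Etv1 is also known as a factor that interstitial cells of Cajal, the pacemaker cells of the muscle layer, depend on. RNA here came from whole tissue, so fewer cells of a type and less RNA per cell cannot be told apart.

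Library totals were 3052940 to 5840995 counts in Normal, Vehicle and both inhibitor groups and 6139216 to 10587555 counts in both antibody groups. Levels are CPM, a gene's counts scaled to the total of its library. The labels were checked with Cd3d, Cd3e and Cd3g, which encode the T cell receptor's CD3 chains. Their summed counts were 0 to 2 in the Normal libraries and 50 to 273 in the recipients. The same counts also come in a joint table, in which 16 of 24 columns are named for another group than in the sample's own file. By those names the sums ran from 0 to 139 in Normal and from 1 to 146 in Vehicle, and the samples' own files were used throughout. The joint table names every Vehicle library for an inhibitor dose. It names MEKi 0.3 replicates 3 and 4 for Vehicle and MEKi 1 replicates 1 and 2 for MEKi 0.3. CD3 transcripts, present in all of these groups, cannot tell which of these names is right. Comparisons among Vehicle and the inhibitor doses therefore rest on the names of the samples' own files. The joint table also swaps the antibody named for 4 libraries (Isotype replicates 3 and 4, anti-TNF replicates 1 and 2). There too CD3 transcripts, present in both groups, cannot tell which name is right. Member results in the antibody groups are also given without these 4 libraries, and calls of other genes lost without them are named. Transcripts of pancreatic enzymes, 7 genes summed, reached 5417 CPM in Vehicle replicate 4, 4300 CPM in Isotype replicate 1 and 106 CPM in Isotype replicate 2, with at most 24.6 CPM elsewhere.

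On the GRCm38 assembly (mm10) as annotated by GENCODE M21, Dusp4 lies at chr8:34807297-34819894, Dusp5 at chr19:53529109-53542431 and Dusp6 at chr10:99263231-99267489. Spry1 lies at chr3:37639947-37644598, Spry2 at chr14:105891947-105896819 and Spred1 at chr2:117121374-117182279. Etv1 lies at chr12:38779380-38870484, Etv4 at chr11:101769742-101785371 and Etv5 at chr16:22381309-22439719. Spry4 overlaps Gm27369 and Gm27804 on the opposite strand, each with 0 counts in the files. Dusp5 and Spry1 each overlap an annotated transcript on the opposite strand that is not among the files' symbols. Whether the counting used strand is not given in the sources used here, so reads of those partners could be counted with them.

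Promoter windows, 250 bases before to 50 bases after a transcription start, were taken from RefSeq (GRCm38.p6) for 7 of the 10 genes, in 9 windows. Both strands were searched for CGGAAG, a form of the site bound by ETS factors, for TGANTCA, the AP-1 site, and for the CArG box of serum response factor. ERK signals are known to reach genes through sites of these kinds. Other forms of the ETS site were not searched. Of 32851 windows genome-wide, 16.9% hold CGGAAG, 7.81% the AP-1 site and 1.63% the CArG box. The windows of Spry1, Spry2 and Etv1 are shown because these 3 genes were the members called lower in Vehicle. Dusp6 and Dusp5 are shown as examples of a match, Dusp5 by a stretch of 50 bases only. The Spred1 window also holds matches and is not shown. Capitals mark a match, and each sequence runs 5′ to 3′ on the gene's own strand.
Spry1, chr3:37639697-37639996, plus strand: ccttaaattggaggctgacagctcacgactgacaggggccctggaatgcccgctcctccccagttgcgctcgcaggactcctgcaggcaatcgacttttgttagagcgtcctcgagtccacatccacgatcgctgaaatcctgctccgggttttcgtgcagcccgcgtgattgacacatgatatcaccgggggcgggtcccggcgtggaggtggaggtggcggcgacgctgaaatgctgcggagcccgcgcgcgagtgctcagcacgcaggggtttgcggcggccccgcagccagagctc
Spry2, chr14:105896770-105897069, minus strand: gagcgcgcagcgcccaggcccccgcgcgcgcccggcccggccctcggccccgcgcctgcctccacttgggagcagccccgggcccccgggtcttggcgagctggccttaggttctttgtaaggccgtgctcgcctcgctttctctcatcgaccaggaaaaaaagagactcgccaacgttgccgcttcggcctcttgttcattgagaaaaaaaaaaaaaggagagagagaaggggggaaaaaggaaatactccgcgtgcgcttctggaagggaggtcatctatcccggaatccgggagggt
Etv1, chr12:38779832-38780131, plus strand: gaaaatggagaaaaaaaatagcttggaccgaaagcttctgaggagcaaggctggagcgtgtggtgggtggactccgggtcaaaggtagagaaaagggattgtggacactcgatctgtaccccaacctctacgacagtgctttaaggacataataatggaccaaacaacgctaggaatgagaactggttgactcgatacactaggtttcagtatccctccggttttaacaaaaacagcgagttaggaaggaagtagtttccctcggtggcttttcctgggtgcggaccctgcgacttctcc
Dusp6, chr10:99262981-99263280, plus strand: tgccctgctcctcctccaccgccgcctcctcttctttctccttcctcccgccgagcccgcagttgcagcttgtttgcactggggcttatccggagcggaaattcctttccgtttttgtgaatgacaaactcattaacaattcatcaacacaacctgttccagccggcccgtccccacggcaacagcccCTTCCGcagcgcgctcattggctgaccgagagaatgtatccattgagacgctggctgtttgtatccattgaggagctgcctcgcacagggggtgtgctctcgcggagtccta
Dusp5, chr19:53529045-53529094, plus strand, 100 to 51 bases before the start: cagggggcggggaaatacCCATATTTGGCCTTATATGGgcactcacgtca

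The windows of Spry1, Spry2 and Etv1 held none of the 3 motifs as searched, nor did a second window of Etv1 or either window of Etv5. The Dusp6 window held 1 CGGAAG, on the minus strand, 62 bases before the start. The Dusp5 window held 2 CArG boxes side by side, beginning 82 and 72 bases before the start. Spred1 held 2 matches to CGGAAG, 17 bases before and 7 bases after the start. No AP-1 site was found in any of the 9 windows. A match is a description of these letters. A window without one says nothing about other forms of the ETS site or about a factor's binding elsewhere.

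Per kilobase of each gene's longest annotated transcript, the 10 genes differed widely in level. In Normal, Spry2 stood at 19.8 ± 2.63 CPM per kb (SD, n = 4) and Dusp6 at 17.9 ± 3.08, which overlap. Etv4 followed at 8.93 ± 3.88, Dusp5 at 6.65 ± 0.656 and Spry1 at 5.22 ± 0.736 CPM per kb. Spred1 was at 3.74 ± 1.08, Etv5 at 3.17 ± 1.19, Dusp4 at 2.01 ± 0.931 and Spry4 at 1.76 ± 0.639 CPM per kb. Etv1 was the least abundant at 0.630 ± 0.102 CPM per kb, or 15 to 24 counts per library. In Vehicle the levels of Dusp6 (20.8 ± 1.97 CPM per kb) and Spry2 (11.1 ± 1.42 CPM per kb) no longer overlapped, and Etv1 was at 0.143 ± 0.0507 CPM per kb, from 2 to 6 counts per library.

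**Figure D1:**
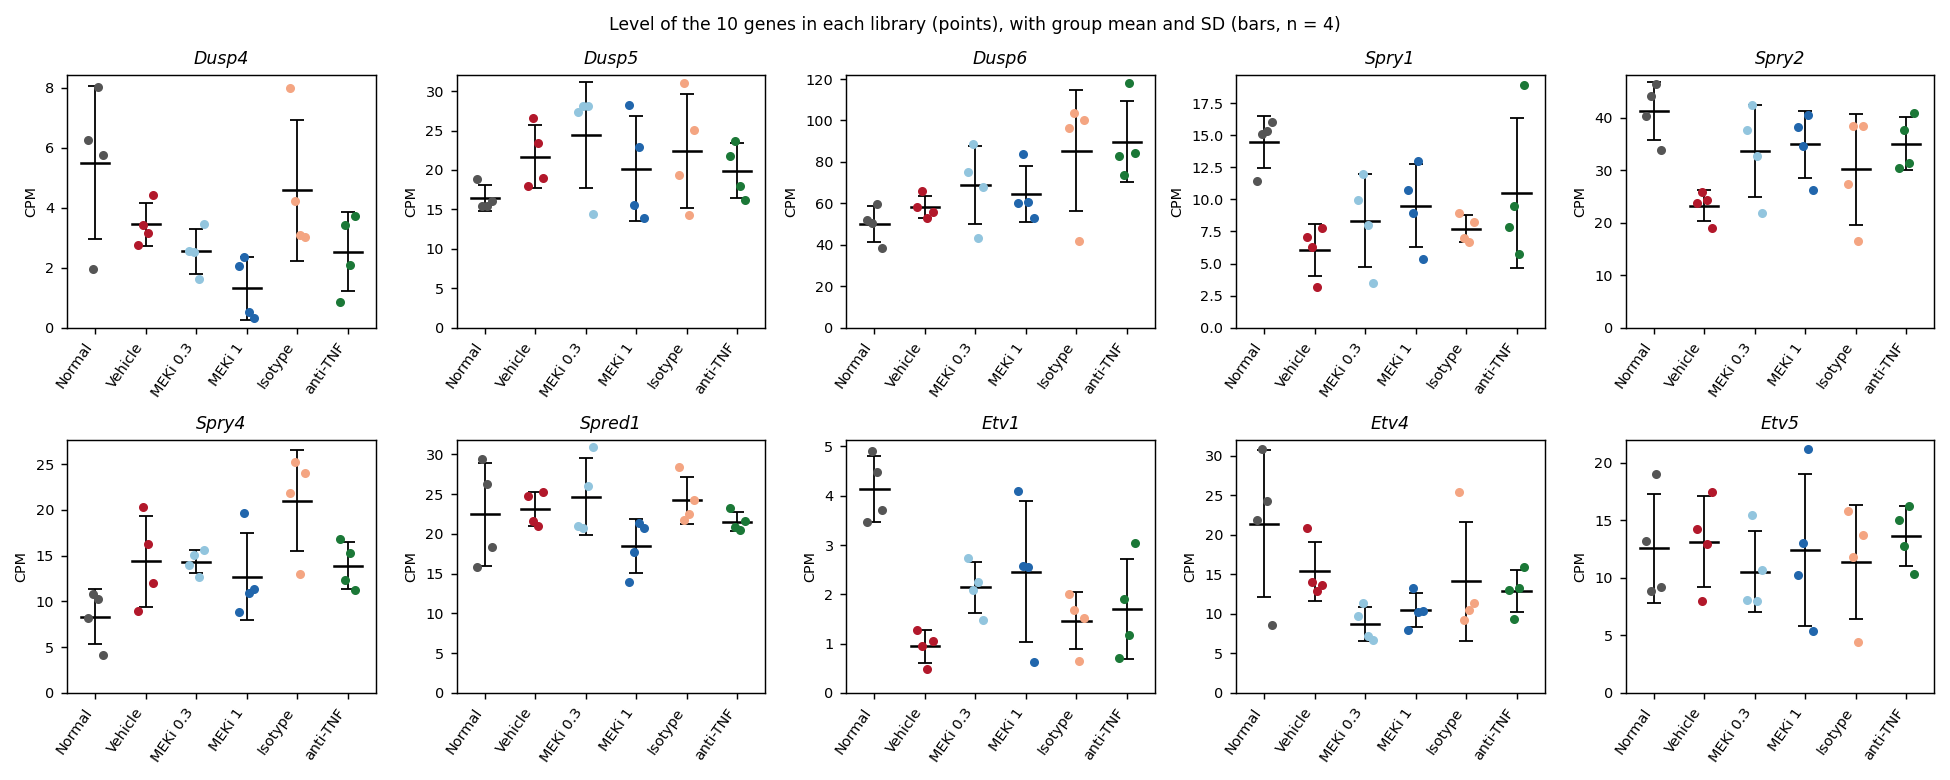
CPM of each of the 10 genes (vertical axes, each from 0) in the 6 groups (horizontal axes). Points are the 4 libraries of a group in replicate order, the long bar is their mean and the whiskers are the SD; Etv1, Spry1 and Spry2 in Vehicle lie below all 4 Normal points.

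The first question was how the genes differ between colitis and untreated colon. In Vehicle, Etv1, Spry1 and Spry2 fell and Spry4 rose against Normal, while the other 6 genes did not pass the test. These 4 of 10 genes compare with 46.4% of all genes tested, called by edgeR at an adjusted p under 0.05 (23.1% higher and 23.3% lower), so the share was near the background. The Vehicle and Normal libraries did not overlap for 3 members, beside 43.4% of all genes in either direction. All 3 were lower, beside 20.1% of all genes that were lower without overlap. The median log2 fold change of the 10 genes was -0.25, against 0.0017 over all genes.

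Etv1 was at 3.46, 4.91, 4.48 and 3.70 CPM in Normal replicates 1 to 4 and at 1.28, 0.948, 0.487 and 1.05 CPM in Vehicle. Every Vehicle library lay below every Normal library. The log2 fold change was -2.13 ± 0.46 (SE; 95% interval -3.08 to -1.19; adjusted p = 0.00070, edgeR).

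Spry1, a Sprouty protein with a role upstream of RAF, was at 11.5, 15.1, 15.3 and 16.0 CPM in Normal and at 7.04, 6.26, 3.17 and 7.79 CPM in Vehicle. The groups did not overlap, and the log2 fold change was -1.29 ± 0.34 (adjusted p = 0.0039, edgeR). Spry2 was at 40.3, 44.2, 46.5 and 33.9 CPM in Normal and at 23.7, 25.8, 24.4 and 19.0 CPM in Vehicle, again without overlap. Spry2 changed by -0.87 ± 0.21 on the log2 scale (adjusted p = 0.0022, edgeR). The calls of Etv1, Spry1 and Spry2 held in all 8 fits that left out a library and in every other setting in which the gene was tested.

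Spry4 went the other way within the same family. It was at 8.23, 10.8, 10.3 and 4.11 CPM in Normal and at 8.96, 20.3, 16.3 and 12.0 CPM in Vehicle. Vehicle replicate 1 lay within the Normal range. The log2 fold change was 0.77 ± 0.29 (adjusted p = 0.030, edgeR). The call was lost without Normal replicate 1 (adjusted p = 0.056), Normal replicate 4 (0.12), Vehicle replicate 2 (0.14) or Vehicle replicate 3 (0.073), and in a fit of only these 2 groups (0.051).

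Dusp6, the cytoplasmic ERK phosphatase, was at 38.7 to 59.5 CPM in Normal and 52.9 to 65.8 CPM in Vehicle. The fold change on the log2 scale was 0.18 ± 0.22 (95% interval -0.28 to 0.64; adjusted p = 0.52, edgeR), and the groups overlapped. Of the nuclear phosphatases, Dusp5 was at 16.4 ± 1.62 CPM in Normal and 21.7 ± 4.01 in Vehicle, and Dusp4 at 5.51 ± 2.55 and 3.44 ± 0.704 CPM (SD, n = 4). Etv4 was at 21.4 ± 9.30 CPM in Normal and 15.4 ± 3.71 in Vehicle, and Etv5 at 12.6 ± 4.73 and 13.2 ± 3.96 CPM. Spred1 was at 22.5 ± 6.47 and 23.2 ± 2.17 CPM. None of these passed the test, and each pair of groups overlapped. Without Normal replicate 4 Etv4 passed (-0.76; adjusted p = 0.034, edgeR), and limma-voom called Dusp4 (-0.95; 0.020).

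The Isotype group gives a second set of colitis libraries against the same 4 Normal libraries, so the 2 comparisons share their controls. Spry4 and Dusp6 rose and Etv1 and Spry1 fell in it. These 4 of 10 genes compare with 41.2% of all genes called (20.9% higher and 20.3% lower). Without overlap, 1 member was higher (Spry4) and 2 were lower (Spry1 and Etv1), beside 20.3% and 16.2% of all genes (36.4% in either direction).

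Spry4 was at 21.8, 25.2, 13.0 and 24.1 CPM in Isotype, above every Normal library, with a log2 fold change of 1.30 ± 0.28 (adjusted p = 0.00084, edgeR). Dusp6 was at 96.2, 104, 41.9 and 100 CPM in Isotype. Replicate 3 lay within the Normal range and the other 3 far above it. The log2 fold change of Dusp6 was 0.72 ± 0.22 (adjusted p = 0.012, edgeR).

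Etv1 was at 2.00, 1.69, 0.652 and 1.51 CPM in Isotype, all below Normal, with a log2 fold change of -1.51 ± 0.41 (adjusted p = 0.0050, edgeR). Spry1 was at 8.96, 6.99, 6.68 and 8.22 CPM, also all below Normal, with a log2 fold change of -0.96 ± 0.33 (adjusted p = 0.023, edgeR). Spry2 was at 27.3, 38.5, 16.5 and 38.4 CPM, which overlapped Normal, and its log2 fold change of -0.50 ± 0.21 did not pass (adjusted p = 0.058, edgeR). Spry2 passed without Isotype replicate 2 (0.033) or replicate 4 (0.028), and with only genes of at least 5 CPM on average (0.048). Etv4, at a log2 fold change of -0.64 ± 0.30 (0.092), passed without Normal replicate 4 (0.015) or Isotype replicate 1 (0.0086) and with the length and GC offset (0.046).

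Spry1 was no longer called in Isotype without Normal replicate 4 (adjusted p = 0.065), Isotype replicate 2 (0.056) or Isotype replicate 3 (0.051). Without the 4 antibody libraries whose naming differs, Spry4 and Dusp6 remained called, and Etv1 (-1.23; adjusted p = 0.060) and Spry1 (-0.94; 0.11) did not.

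**Figure D2:**
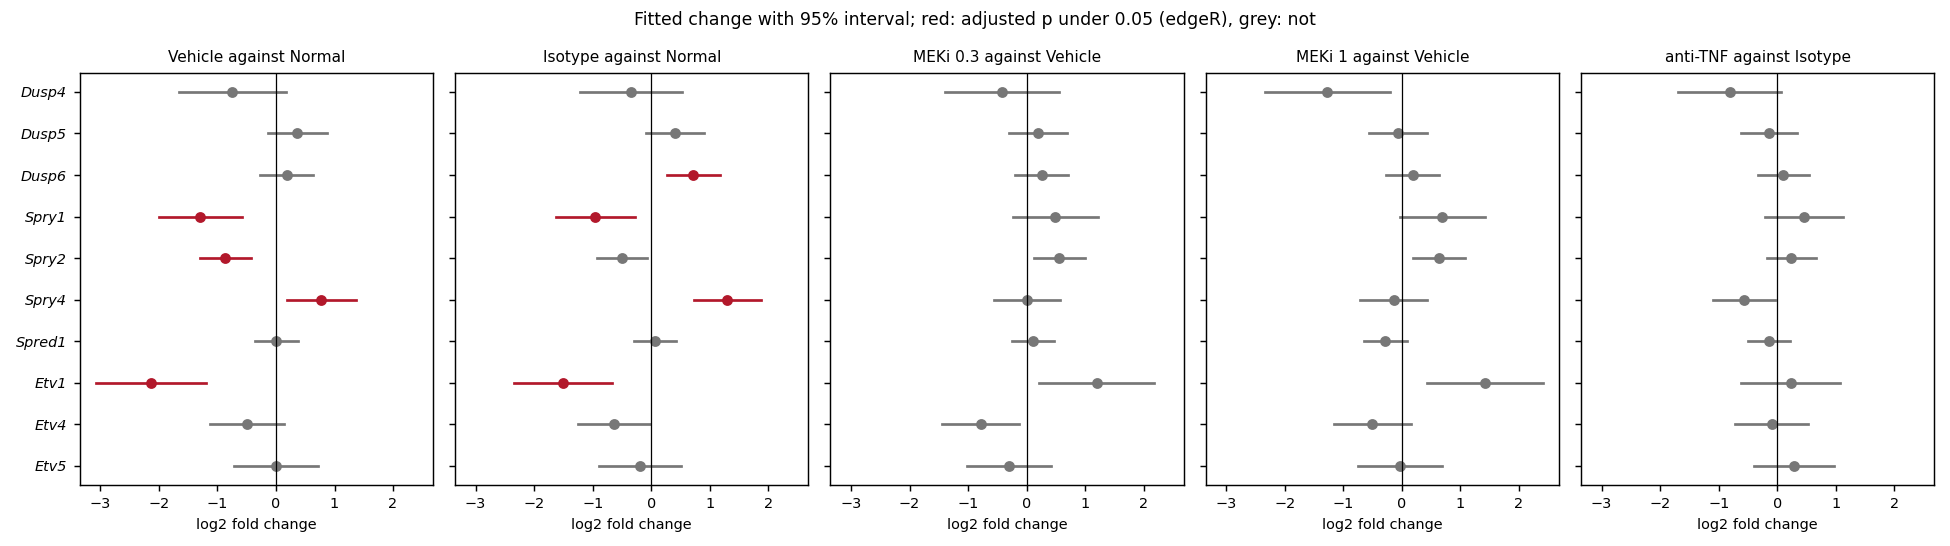
Fitted log2 fold change (horizontal axes, point) of the 10 genes (rows) in 5 comparisons, with its 95% interval (line). Red marks an adjusted p under 0.05 in edgeR; red points occur in both comparisons with Normal and in none of the 3 treatment comparisons.

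The second question was whether MEK inhibition shifted these genes in the inflamed colon. At either dose no member passed the test against Vehicle. At 1 mg/kg edgeR called 10.6% of all genes (6.08% higher and 4.51% lower), and 0 of the 10. Of the members, 3 had an unadjusted p under 0.05: Dusp4, lower, and Etv1 and Spry2, higher. The share of all genes at that unadjusted cut was not computed, so these 3 have no background beside them. Other tools moved the count of called members. DESeq2 called 2 members (Etv1 and Spry2, both higher) among 2234 genes. Limma-voom with sample weights called 4 (Etv1, Spry1 and Spry2 higher, Dusp4 lower) among 4808 genes. A fit of only these 2 groups called Spry2 (adjusted p = 0.022) among 2049 genes, and without MEKi 1 replicate 4 Etv1 (0.032) and Spry2 (0.049) passed among 1447. Counts over all genes ran from 43 without MEKi 1 replicate 1 to 2369 without MEKi 1 replicate 2.

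Dusp6, among the transcripts most often read for ERK output, was at 60.0, 84.0, 60.7 and 52.9 CPM in MEKi 1 and at 58.2, 65.8, 52.9 and 56.0 CPM in Vehicle. MEKi 1 replicate 2 lay above every Vehicle library and the other 3 within the Vehicle range, with a log2 fold change of 0.19 ± 0.22 (95% interval -0.27 to 0.64; adjusted p = 0.59, edgeR).

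Dusp4 was the member with the lowest fold change at 1 mg/kg. It was at 2.05, 2.35, 0.510 and 0.315 CPM in MEKi 1, from 1 to 11 counts, and at 2.77, 3.41, 3.17 and 4.42 CPM in Vehicle. Every MEKi 1 library lay below every Vehicle library, and Dusp4 was the 1 member lower without overlap, beside 10.3% of all genes. The log2 fold change of -1.28 ± 0.52 (95% interval -2.34 to -0.21) had an adjusted p of 0.10 in edgeR and of 0.030 in limma-voom. Dusp5 was at 28.3, 15.6, 23.0 and 13.9 CPM in MEKi 1 and 17.9 to 26.6 CPM in Vehicle, with a log2 fold change of -0.07 ± 0.24 (adjusted p = 0.88, edgeR).

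Among the Sprouty genes, Spry2 was at 38.3, 34.6, 40.6 and 26.1 CPM in MEKi 1, above the 19.0 to 25.8 CPM of Vehicle in every library. It was the 1 member higher without overlap, beside 8.35% of all genes (18.7% in either direction). Its log2 fold change was 0.63 ± 0.21 (95% interval 0.19 to 1.07), with an adjusted p of 0.057 in edgeR and 0.042 in DESeq2. Spry1 was at 10.7, 8.98, 13.0 and 5.35 CPM in MEKi 1, with a log2 fold change of 0.69 ± 0.35 (adjusted p = 0.19, edgeR). Only replicate 4 of MEKi 1 fell within the Vehicle range of Spry1. Spry4 was at 8.90, 19.7, 11.0 and 11.3 CPM in MEKi 1, inside or just under the Vehicle range of 8.96 to 20.3 CPM, with a log2 fold change of -0.14 ± 0.28 (adjusted p = 0.76, edgeR). Spred1 was at 18.5 ± 3.44 CPM against 23.2 ± 2.17 in Vehicle (SD, n = 4), a log2 fold change of -0.28 ± 0.18 (adjusted p = 0.30, edgeR).

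Of the ETS factors, Etv1 was at 4.11, 2.57, 2.55 and 0.630 CPM in MEKi 1 against 0.487 to 1.28 CPM in Vehicle. Replicates 1 to 3 lay above every Vehicle library and replicate 4, with 2 counts, within them. The log2 fold change was 1.42 ± 0.48 (95% interval 0.43 to 2.41), with an adjusted p of 0.055 in edgeR and 0.048 in DESeq2. Etv4 was at 7.98, 13.3, 10.2 and 10.4 CPM in MEKi 1 and at 20.9, 14.0, 12.9 and 13.7 CPM in Vehicle. Only MEKi 1 replicate 2 reached the Vehicle range, and the log2 fold change of Etv4 was -0.51 ± 0.32 (95% interval -1.17 to 0.15; adjusted p = 0.28, edgeR). Etv5 was at 10.3, 13.0, 21.2 and 5.35 CPM in MEKi 1, a spread on both sides of Vehicle, with a log2 fold change of -0.03 ± 0.35 (adjusted p = 0.96, edgeR).

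At 0.3 mg/kg edgeR called 1 gene in all, 0.00677% of those tested, and 0 members. An unadjusted p under 0.05 was reached by 3 members, namely Etv1 and Spry2, higher, and Etv4, lower. For all genes the share at that unadjusted cut was not computed, so this count has no background beside it. Deviations from the group means correlated weakly over genes between same-numbered Vehicle and MEKi 0.3 libraries (0.13, 0.13, 0.17 and 0.18). Differently numbered libraries were not compared, so a true pairing was not shown. A fit of these 2 groups with the replicate number as a block called 405 genes and 0 members. DESeq2 called 92 genes and 0 members, and limma-voom called 3357 genes and 2 members (Etv1 and Spry2). Without MEKi 0.3 replicate 4, edgeR called 1130 genes, Spry2 among them (adjusted p = 0.038).

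Etv4 was at 9.76, 11.3, 7.17 and 6.69 CPM in MEKi 0.3, below every Vehicle library, and was the 1 member lower without overlap, beside 3.53% of all genes. Its log2 fold change was -0.79 ± 0.32 (95% interval -1.44 to -0.13; adjusted p = 0.22, edgeR). Etv1 was at 2.74, 2.10, 2.25 and 1.49 CPM, above every Vehicle library, the 1 member higher without overlap, beside 4.11% of all genes (7.64% in either direction). Its log2 fold change was 1.19 ± 0.48 (adjusted p = 0.22, edgeR). Spry2 was at 37.7, 42.3, 32.8 and 21.8 CPM, with replicate 4 inside the Vehicle range, and a log2 fold change of 0.56 ± 0.21 (adjusted p = 0.20, edgeR).

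Dusp6 was at 75.0, 88.5, 43.4 and 67.9 CPM in MEKi 0.3, on both sides of Vehicle, with a log2 fold change of 0.26 ± 0.22 (95% interval -0.20 to 0.71; adjusted p = 0.53, edgeR). Log2 fold changes of the other 6 members ran from -0.42 for Dusp4 to 0.49 for Spry1. Spry4 was at 0.0045, Spred1 at 0.11, Dusp5 at 0.20 and Etv5 at -0.30. In CPM, Spry4 was at 12.7 to 15.6 in MEKi 0.3, Spred1 at 20.8 to 31.0, Dusp4 at 1.64 to 3.47 and Etv5 at 8.05, 15.5, 7.99 and 10.7, each overlapping Vehicle. Dusp5 was at 27.4, 28.1, 28.1 and 14.4 CPM, with replicate 4 below every Vehicle library and the other 3 above. Spry1 was at 9.93, 11.9, 7.99 and 3.47 CPM, where again only replicate 4 lay inside the Vehicle range.

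Between the doses, edgeR called 0.0% of all genes and 0 members. Unadjusted, 1 member, Spred1, had a p under 0.05, a cut at which the share of all genes was not computed. DESeq2 called 2 genes and limma-voom 0 genes, and neither called a member. No member was without overlap between the doses, beside 1.93% of all genes (1.32% lower). Spred1 was at 13.9 to 21.4 CPM at 1 mg/kg and 20.8 to 31.0 CPM at 0.3 mg/kg, a log2 difference of -0.39 ± 0.18 (adjusted p = 1.00, edgeR). The estimate farthest from 0 was that of Dusp4, -0.85 ± 0.53 (95% interval -1.95 to 0.24). Dusp6 differed by -0.07 ± 0.22 (95% interval -0.52 to 0.38), Etv1 by 0.23 ± 0.43, Spry1 by 0.20 ± 0.34 and Spry2 by 0.07 ± 0.21. A p that misses the threshold does not show that the doses act alike, and the interval for Etv1 ran from -0.66 to 1.12.

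Against Normal, MEKi 1 shows where the members stood after treatment. EdgeR called 12.8% of all genes in that comparison (8.06% higher and 4.79% lower), and 2 of the 10 members, Dusp4 and Etv4, were lower. None of the 10 lay apart from Normal without overlap, beside 9.25% of all genes higher and 9.44% lower in that way. Dusp4 was at 6.28, 1.97, 8.02 and 5.76 CPM in Normal, so Normal replicate 2 overlapped MEKi 1. Its log2 fold change was -2.02 ± 0.50 (adjusted p = 0.0094, edgeR) and held in all 8 fits that left out a library.

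Etv4 was at 21.9, 30.8, 24.3 and 8.64 CPM in Normal, where replicate 4 lay inside the MEKi 1 range. Its log2 fold change was -1.01 ± 0.32 (adjusted p = 0.038, edgeR). The call of Etv4 was lost without Normal replicate 1, 2 or 3 or any single MEKi 1 replicate (adjusted p = 0.058 to 0.12) and with no filter on low counts (0.052). Etv1 (-0.71 ± 0.41), Spry1 (-0.60 ± 0.34) and Spry2 (-0.24 ± 0.21) did not pass against Normal (adjusted p = 0.26, 0.24 and 0.48, edgeR), nor did Dusp6 (0.37 ± 0.22; 0.28).

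The antibody arm asks the same of blocking tumour necrosis factor. Against Isotype, edgeR called 0.0203% of all genes and 0 members, and DESeq2 and limma-voom called 0 members among 77 and 35 genes. No member was without overlap, beside 5.23% of all genes (3.61% lower). Spry4 alone reached an unadjusted p under 0.05, a cut at which the share of all genes was not computed. It was at 16.8, 12.3, 15.3 and 11.3 CPM in anti-TNF against 13.0 to 25.2 CPM in Isotype, which overlapped, with a log2 fold change of -0.57 ± 0.26 (adjusted p = 0.42, edgeR). Dusp6 was at 82.7, 73.7, 118 and 84.3 CPM in anti-TNF, with a log2 fold change of 0.11 ± 0.21 (95% interval -0.33 to 0.55; adjusted p = 0.89, edgeR).

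Spry1 was at 7.89, 9.49, 5.73 and 19.0 CPM in anti-TNF, where replicate 4 stood apart, and its log2 fold change was 0.46 ± 0.32 (adjusted p = 0.61, edgeR). Spry2 (0.24 ± 0.20; 0.69) and Etv1 (0.23 ± 0.41; 0.87) also did not pass against Isotype. Without the 4 libraries whose naming differs the estimates were -0.76 for Spry4, 0.083 for Dusp6, 0.69 for Spry1, 0.19 for Spry2 and 0.24 for Etv1, and none passed. Levels in anti-TNF were 30.4, 37.6, 31.4 and 41.0 CPM for Spry2 and 0.717, 1.90, 1.17 and 3.05 CPM for Etv1, with replicate 4 the highest of both. The remaining members overlapped between the antibody groups. Dusp4 was at 8.02, 4.22, 3.09 and 3.02 CPM in Isotype and 0.860, 3.44, 2.11 and 3.71 CPM in anti-TNF. Dusp5 ran from 14.3 to 31.0 and from 16.2 to 23.7 CPM, Etv4 from 9.28 to 25.3 and from 9.37 to 15.9 CPM, Etv5 from 4.40 to 15.8 and from 10.3 to 16.3 CPM, and Spred1 from 21.7 to 28.4 and from 20.5 to 23.2 CPM.

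Against Normal, 22.4% of all genes were called in anti-TNF (12.5% higher and 9.89% lower) and 2 of 10 members. Dusp6 rose, with every anti-TNF library above every Normal library and a log2 fold change of 0.82 ± 0.22 (adjusted p = 0.0096, edgeR), a call lost without anti-TNF replicate 3 (0.053) and held without the 4 libraries whose naming differs (0.0068). Etv1 fell, with every library below Normal, with a log2 fold change of -1.28 ± 0.40 (adjusted p = 0.025, edgeR). The Etv1 call was lost without Normal replicate 2 (0.056), 3 (0.059) or 4 (0.051), without anti-TNF replicate 1 (0.097) or 3 (0.095), and without the 4 libraries whose naming differs (0.26). Spry4, at 0.73 ± 0.28 (0.061), did not overlap Normal either. So 2 members were higher and 1 lower without overlap, beside 12.5% and 8.29% of all genes (20.8% in either direction). Spry4 passed with the replicate block (0.049), with no filter (0.047), in limma-voom (0.013) and without Normal replicate 2 (0.047) or anti-TNF replicate 4 (0.036).

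Dusp4 in anti-TNF, at -1.16 ± 0.44 against Normal (adjusted p = 0.057, edgeR), passed in DESeq2 (0.047), with the length and GC offset (0.045), in limma-voom (0.00065) and without Normal replicate 2 (0.025) or anti-TNF replicate 4 (0.028). Spry1, at -0.49 ± 0.32 (0.28), passed without anti-TNF replicate 4 (-0.93; 0.024) and in limma-voom. Etv4, at -0.74 ± 0.30 (0.080), passed without Normal replicate 4 (0.018). Member counts ran from 0 among 1924 genes without anti-TNF replicate 3 to 5 among 4831 genes without anti-TNF replicate 4, and limma-voom called 5 among 6700.

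Whether the MEKi 1 effect differed from the anti-TNF effect was tested as a difference of differences. EdgeR called 0.0135% of all genes and 0 members, with 0 at an unadjusted p under 0.05. The largest estimate was that of Etv1, 1.19 ± 0.63 (95% interval -0.11 to 2.50; adjusted p = 0.93, edgeR). DESeq2 called 0 members. Limma-voom called Etv1 (1.68; 0.042) and Spry2 (0.75; 0.045), among far more genes than edgeR called, as counted in the closing section on processing.

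Other genes of the pathway were read from 5 lists. Their counts stand beside the shares of all genes called by edgeR. These were 46.4% in Vehicle against Normal (23.1% higher and 23.3% lower) and 10.6% at 1 mg/kg against Vehicle. Against Normal they were 41.2% in Isotype, 22.4% in anti-TNF and 12.8% in MEKi 1. Of 9 other ERK output genes, 8 were tested (Fosl1 was not), and 8 rose in Vehicle against Normal. Ier3, an immediate early gene, was at 14.3, 12.1, 11.8 and 14.8 CPM in Normal and at 44.8, 36.6, 30.0 and 52.5 CPM in Vehicle. All Vehicle libraries lay above all Normal libraries, and the log2 fold change of Ier3 was 1.58 ± 0.25 (adjusted p = 3.8e-05, edgeR). Fos, the AP-1 subunit, rose by 1.11 ± 0.20, the cyclin Ccnd1 by 1.17 ± 0.25 and the zinc finger factor Egr1 by 1.49 ± 0.36 on the log2 scale (adjusted p = 0.00013, 0.00068 and 0.0022, edgeR). The list's median log2 fold change was 1.19. In Isotype against Normal 8 of 8 also rose, with a median of 1.43.

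At 1 mg/kg against Vehicle, 1 of these 8 passed. Ier3 was at 18.9, 25.9, 18.4 and 16.1 CPM in MEKi 1, below every Vehicle library, and fell (log2 fold change -0.997 ± 0.24; adjusted p = 0.018, edgeR). The call of Ier3 was lost without Vehicle replicate 1 (0.052) or 4 (0.081) and without MEKi 1 replicate 1 (0.067) or 3 (0.061). Fos was at 176 ± 18.7 CPM in MEKi 1 and 178 ± 34.3 in Vehicle (SD, n = 4), while Egr1 was at 23.9 ± 11.7 and 33.5 ± 8.53 CPM and Ccnd1 at 102 ± 26.3 and 138 ± 25.7 CPM. At 0.3 mg/kg Ier3 was at 18.1, 16.6, 16.2 and 31.5 CPM, where replicate 4 lay inside the Vehicle range, with a nearly equal estimate of -0.98 ± 0.24 that did not pass (adjusted p = 0.18, edgeR). In anti-TNF against Isotype it was -0.76 ± 0.23 (0.24). The list's median was -0.46 at 1 mg/kg and -0.39 at 0.3 mg/kg, where 0 of 8 passed, and -0.25 in anti-TNF against Isotype, where 0 of 8 passed. Against all genes these medians stand beside 0.0045, 0.0051 and -0.0021.

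Among 7 other MAP kinase phosphatases, 4 rose and 0 fell in Vehicle against Normal, beside 23.1% and 23.3% of all genes. Their median was 0.63. Dusp2, a nuclear phosphatase of haematopoietic cells, was at 0.649, 1.31, 1.49 and 1.65 CPM in Normal and at 7.47, 9.86, 3.17 and 8.43 CPM in Vehicle, without overlap (log2 fold change 2.44 ± 0.43; adjusted p = 0.00010, edgeR). Dusp1, an immediate early phosphatase, was at 22.7, 19.3, 26.9 and 34.6 CPM in Normal and at 34.8, 56.9, 40.2 and 47.8 CPM in Vehicle, where the lowest Vehicle library was just above the highest Normal one (0.74 ± 0.17; 0.0013). Dusp10 (0.63 ± 0.21; 0.016) and Dusp9 (2.92 ± 0.72; 0.0022) rose as well. Dusp9 was near the floor in Normal, at 0.342 ± 0.444 CPM, and at 3.13 ± 0.968 CPM in Vehicle (SD), which limits its fold change.

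At 1 mg/kg against Vehicle 2 of the 7 fell. Dusp1 was at 28.3, 22.2, 29.8 and 23.0 CPM in MEKi 1, below every Vehicle library, and fell by 0.76 ± 0.17 (adjusted p = 0.014, edgeR), a call lost without Vehicle replicate 4 (0.053) or MEKi 1 replicate 1 (0.056). Dusp2 was at 1.37, 4.92, 2.30 and 2.83 CPM, overlapping Vehicle replicate 3, and fell by 1.29 ± 0.39 (adjusted p = 0.038, edgeR). The Dusp2 call was lost without Vehicle replicate 1, 2 or 4 or MEKi 1 replicate 1, 3 or 4 (adjusted p = 0.052 to 0.14) and in 3 other settings. At 0.3 mg/kg and in anti-TNF against Isotype 0 of 7 passed, and Dusp1 was at 39.1 ± 2.19 and 41.7 ± 1.66 CPM there (SD, n = 4).

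Of the 8 other ETS factors, Ets1 and Elk3 rose and Ets2 fell in Vehicle against Normal, but the Ets2 call was lost without Normal replicate 2, 3 or 4 or Vehicle replicate 1, 3 or 4 (adjusted p = 0.056 to 0.11, edgeR) and in 3 other settings (up to 0.14). Elk3 fell at 1 mg/kg against Vehicle, by 0.72 ± 0.21 (adjusted p = 0.035, edgeR). That Elk3 call was lost without Vehicle replicate 1 or 4 or MEKi 1 replicate 1, 3 or 4 (adjusted p = 0.075 to 0.12). Of the 3 other Sprouty, Spred and Sef genes tested (Spry3 was not), Il17rd, which encodes Sef, fell by 0.87 ± 0.27 and Spred2 by 0.47 ± 0.15 in Vehicle against Normal (adjusted p = 0.012 and 0.014, edgeR), and 0 of 3 passed at either dose. The Spred2 call was lost without Normal replicate 3 (0.061) or Vehicle replicate 4 (0.074), and the Il17rd call with the length and GC offset (-0.51; 0.087).

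Of 23 genes of the ERK cascade, 2 rose and 5 fell in Vehicle against Normal, beside 23.1% and 23.3% of all genes. Map2k1, which encodes MEK1, was at 247, 259, 253 and 254 CPM in Normal and at 130, 143, 124 and 115 CPM in Vehicle, without overlap (log2 fold change -1.03 ± 0.15; adjusted p = 1.6e-05, edgeR). The docking protein Gab1 fell by 1.62 ± 0.32 and the RAS activator Sos2 by 0.82 ± 0.17, and Nras rose by 0.80 ± 0.18. At 1 mg/kg Map2k1 was at 204, 165, 216 and 123 CPM, where replicate 4 lay inside the Vehicle range, and rose by 0.50 ± 0.15 against Vehicle (adjusted p = 0.036, edgeR), the 1 gene of 23 to pass. The call of Map2k1 was lost without Vehicle replicate 1, 3 or 4 or MEKi 1 replicate 1 or 3 (adjusted p = 0.066 to 0.15), with scaling by library size alone (0.054) and with no filter (0.059).

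In the remaining comparisons with Normal the same lists were read for Isotype, anti-TNF and MEKi 1. Of the ERK output genes, 8 of 8 rose in Isotype, 7 of 8 in anti-TNF and 2 of 8 in MEKi 1. Epha2, a receptor kinase that ERK induces, rose by 1.74 ± 0.31 in Isotype and Epha4, of the same receptor family, by 0.91 ± 0.21 in anti-TNF (adjusted p = 0.00016 and 0.0038, edgeR). Both genes that rose in MEKi 1 were Fos (1.14 ± 0.20; 0.00037) and Ccnd1 (0.79 ± 0.25; 0.037).

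Of the other phosphatases, 5 of 7 rose in Isotype, 1 of 7, Dusp1 (0.65 ± 0.17; adjusted p = 0.0083, edgeR), in anti-TNF and 0 of 7 in MEKi 1. The ETS factor Ets1 rose by 1.28 ± 0.22 in Isotype and 0.81 ± 0.22 in anti-TNF, where 4 and 2 of 8 rose, among them Erf (0.58 ± 0.16) and Etv6 (0.40 ± 0.14) in Isotype and Elk4 (0.44 ± 0.16 and 0.46 ± 0.16) in both. In the cascade, Gab1 was lower in Isotype (-1.71 ± 0.31), anti-TNF (-1.20 ± 0.30) and MEKi 1 (-0.95 ± 0.31), and Map2k1 likewise (-0.77 ± 0.15, -0.45 ± 0.15 and -0.52 ± 0.15). Nras (0.87 ± 0.18 and 0.57 ± 0.18) and the ERK substrate kinase Rps6ka1 (0.38 ± 0.11 and 0.35 ± 0.11) rose in Isotype and anti-TNF. Each of these passed at an adjusted p under 0.05 in edgeR, but many did not hold in every setting.

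Without the 4 antibody libraries whose naming differs, Elk4 (adjusted p = 0.12), Etv6 (0.089), Erf (0.0503) and Rps6ka1 (0.062) were no longer called in Isotype against Normal. In anti-TNF against Normal, Ets1 (0.20), Elk4 (0.28), Gab1 (0.18), Map2k1 (0.28), Nras (0.25), Rps6ka1 (0.22) and Dusp1 (0.098) were no longer called without them. Single libraries also ended calls. In Isotype these were Normal 1 or Isotype 3 for Etv6 and Normal 1, Normal 4 or Isotype 4 for Elk4 (0.053 to 0.084). In anti-TNF they were Normal 1, 2 or 4 or anti-TNF 1, 2 or 3 for Elk4, Normal 2, 3 or 4 or anti-TNF 1 or 3 for Map2k1, Normal 3 or 4 or anti-TNF 1 or 3 for Nras, and Normal 2 or anti-TNF 1, 2 or 3 for Rps6ka1 (0.056 to 0.13). In MEKi 1 they were any Normal library or MEKi 1 replicate 2 or 4 for Gab1, Normal 2 or 4 or MEKi 1 replicate 2 or 4 for Map2k1, and Normal 1, 3 or 4 or MEKi 1 replicate 2 or 4 for Ccnd1 (0.050 to 0.16).

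**Figure D3:**
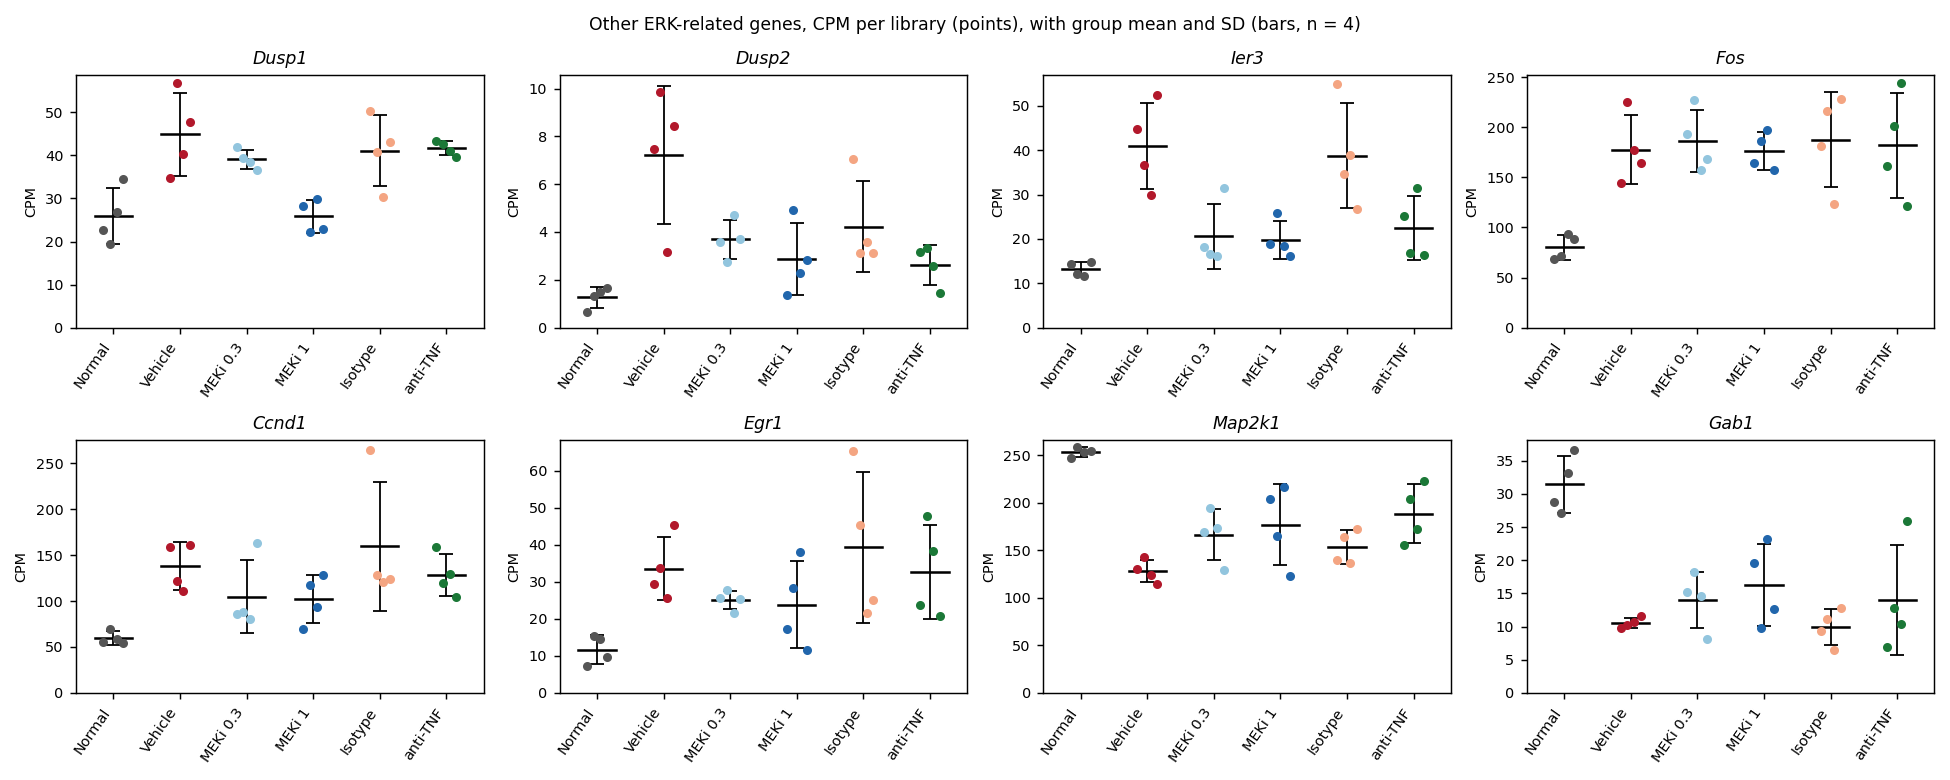
CPM (vertical axes, each from 0) of 8 other ERK-related genes in the 6 groups (horizontal axes), chosen after their values were seen. Points are the 4 libraries, the long bar is the mean and the whiskers the SD; Dusp1 and Ier3 in MEKi 1 lie below every Vehicle point, while Fos overlaps.

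Markers of several cell types moved with these results. Counts of markers called, here and for blood cells below, stand beside the shares of all genes called. These were 23.1% higher and 23.3% lower in Vehicle against Normal, and 6.08% higher and 4.51% lower in MEKi 1 against Vehicle. The 3 markers of interstitial cells of Cajal (Kit, Ano1 and Thbs4) fell in Vehicle against Normal, 3 of 3, and their summed level was 898 to 962 CPM in Normal and 234 to 322 CPM in Vehicle. It was 422 to 697 CPM in MEKi 1, where 2 of 3 rose against Vehicle, 202 to 666 CPM in MEKi 0.3, 279 to 516 CPM in Isotype and 319 to 828 CPM in anti-TNF. Of 10 smooth muscle markers 10 fell in Vehicle against Normal and 2 rose in MEKi 1 against Vehicle, with sums of 7025 to 8818 CPM in Normal, 1601 to 3555 CPM in Vehicle and 2488 to 4557 CPM in MEKi 1. Enteric neuron markers fell in 4 of 5 tested and glial markers in 2 of 3 in Vehicle against Normal. The part of these cells in the values of Etv1, Spry1 and Spry2 was not tested.

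**Figure D4:**
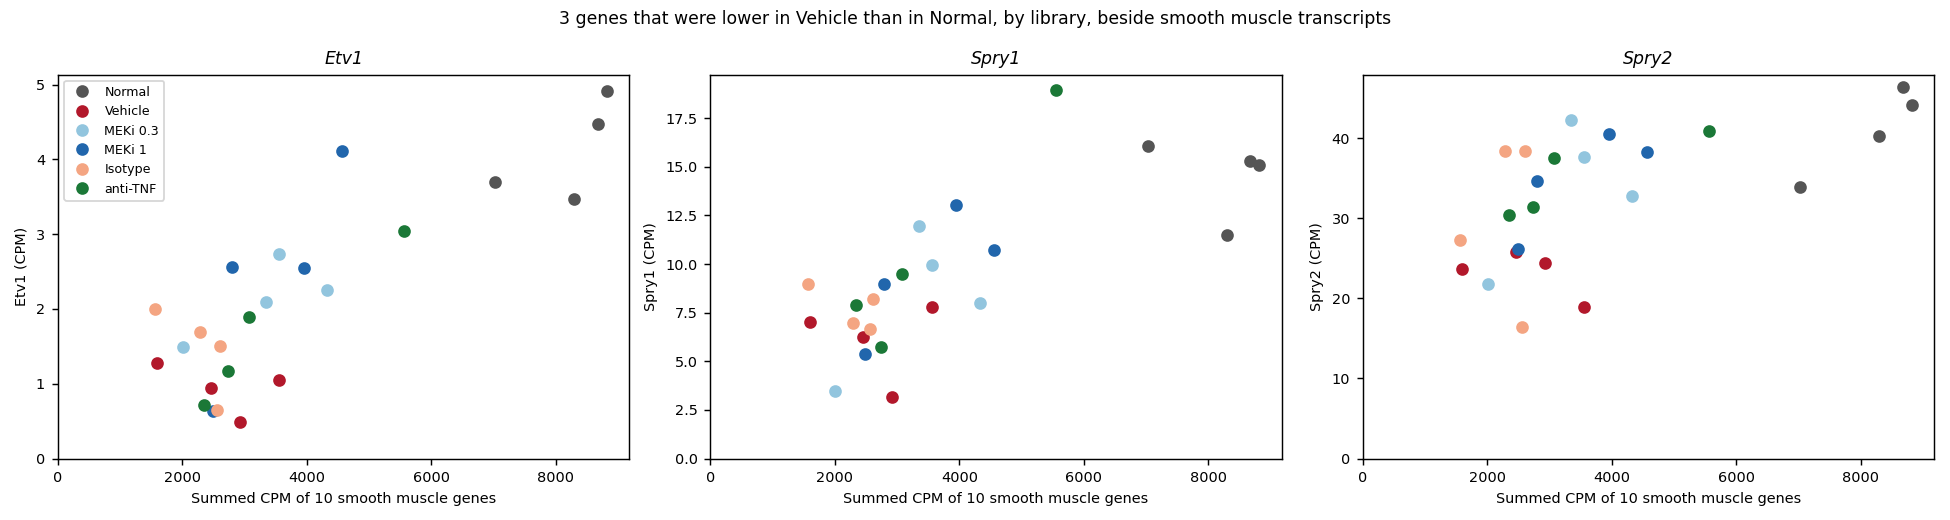
CPM of Etv1, Spry1 and Spry2 (vertical axes) against the summed CPM of 10 smooth muscle genes (horizontal axes) in the 24 libraries, coloured by group. The 4 Normal libraries lie at 7025 to 8818 CPM of muscle transcripts, and anti-TNF replicate 4, at 5553 CPM, has the highest Spry1 of all libraries, 19.0 CPM.

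Blood cell markers moved as well. Of 7 T cell markers 7 rose in Vehicle against Normal and 4 fell in MEKi 1 against Vehicle, with sums of 10.8 to 14.7 CPM in Normal, 112 to 162 CPM in Vehicle and 42.8 to 107 CPM in MEKi 1. Cd3d and Cd3e were at 0 in every Normal library. Of 7 myeloid markers 7 rose in Vehicle against Normal and 6 fell in MEKi 1 against Vehicle, with sums of 434 to 524, 2496 to 4699 and 501 to 1809 CPM. Their part in the values of Spry4, Dusp4, Dusp1, Dusp2 and Ier3 was not tested. Epithelial markers, 10 genes summed, were at 12920 to 17993 CPM in Vehicle and 16999 to 19494 CPM in MEKi 1, and 0 of 10 passed between these groups. In Vehicle against Normal 2 of these 10 rose and 3 fell, near the 23.1% and 23.3% of all genes. There, of 4 fibroblast markers 1 rose and 2 fell, and of 5 endothelial markers 0 passed.

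The genes most like each member were taken from 11088 genes with a mean of at least 5 CPM, by Pearson's r of log2 CPM over the 24 libraries, given as a description since the libraries share group, depth and tissue make-up. Spry2 was closest to Cmtm4 (r = 0.94), Plekhb2 (0.93) and Sspo (0.92). Etv1 was closest to Peli2 (0.93), Scg2 (0.92) and Ston1 (0.90), and Spry1 to Nedd9 (0.91), Pdp2 (0.91) and Nacc2 (0.90). With group means removed these 9 values were 0.82 to 0.95.

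Other members had looser neighbours. Dusp4 was closest to Acsl1 (0.82), Spred1 to Pir (0.81), Etv4 to Frzb (0.82) and Spry4 to Ccdc71l (0.80), followed by Epha2 (0.79), itself in the list of ERK output genes. Dusp6 was closest to Fam120a (0.77), with Shc1, an adaptor of the RAS pathway, among its 3 nearest (0.75). Dusp5 was closest to Sgk2 (0.75) and Etv5 to Ddx28 (0.68). Once group means were removed, Spry4 dropped to 0.61 with Ccdc71l and to 0.62 with Epha2. Dusp6 with Fam120a dropped to 0.61, Etv4 with Frzb to 0.67 and Dusp4 with Acsl1 to 0.75. Others rose: Spred1 with Pir to 0.87, Dusp5 with Sgk2 to 0.81, Dusp6 with Shc1 to 0.78 and Etv5 with Ddx28 to 0.77.

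Among themselves, with group means removed, the 45 pairs of members had a median r of 0.19 over the 24 libraries, from -0.54 to 0.73, and 32 of the 45 were above 0. The highest were Dusp5 with Spry2 (0.73), Spry1 with Etv1 (0.70) and Dusp6 with Spry4 (0.61). These values share libraries and depth and are given as a description.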

How the data were processed

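RNA was sequenced from 24 distal colon samples, 4 in each of 6 groups. Per the labels' protocols, poly(A) RNA was fragmented with RNase III and sequenced on an Ion Torrent instrument. The authors deposited whole-number read counts per gene symbol, not normalised, with mouse build mm10 named in the submitters' processing notes. Aligner, counting tool, annotation and strand setting: not given in the sources used here. The samples' own count files were used, since 16 of 24 column names in the table of the whole series give another sample. No column of that table lacked a sample (0 columns).

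Counts were tested in R 4.3.3 with edgeR 4.0.16 (filterByExpr, TMM factors, robust quasi-likelihood F test). One model was fitted to all 24 libraries without a replicate term, and p-values were adjusted by Benjamini-Hochberg over the 14773 genes tested within each of 9 comparisons. The common dispersion was 0.0539 and the median prior degrees of freedom 6.53. A call is an adjusted p under 0.05, and intervals are at 95%. The procedure was run on counts simulated with the common dispersion for every gene. No simulated library was made to stand apart, so the run does not cover such libraries. Levels are CPM of the unscaled library total, and correlations took TMM log2 CPM (prior count 2). Levels per kb used the longest GENCODE M21 transcript, with lengths found for 40438 of 43280 symbols.

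The members, the lists of other pathway genes and the marker lists were chosen with earlier results of these data known. By rule, the text names the 10 members, up to 4 called genes per pathway list and comparison, and the 3 genes with the highest correlation with each member among genes with a mean of at least 5 CPM. Replicates of a group differed beyond counting noise (chi-square per gene 5.38 to 59.9 in genes with at least 20 summed counts), so none was counted as a repeat. Numbers were taken to pair libraries where the correlation of same-numbered deviations was over 0.1 in every pair. This held only for MEKi 0.3 and Vehicle (0.126, 0.125, 0.167 and 0.184), and the blocked count stands beside that result. Correlations between differently numbered libraries were not computed, so the rule does not show a true pairing. For anti-TNF and Isotype the values were 0.216, 0.0862, 0.142 and 0.342.

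Alternatives were RLE factors, library size alone, testing without a filter or only genes at 5 CPM or more on average, only the groups compared, a replicate block, an offset for transcript length and GC, DESeq2 1.42.0, limma-voom with sample weights (limma 3.58.1), leaving out the 4 antibody libraries named differently, and leaving out each replicate.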

Additional observations from a re-analysis of the deposited data

Results flagged for a closer look

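In 4 of the 60 groups of 4 libraries checked (10 genes in 6 groups), 1 library stood apart from the other 3 by more than Dixon's critical value; chance gives about 1 in 20 such groups. Dusp5 was at 14.38 CPM in MEKi 0.3 replicate 4 and at 27.4 to 28.1 CPM in the others. Dusp6 was at 41.86 CPM in Isotype replicate 3, against 96.2 to 104 CPM. Etv4 was at 20.9 CPM in Vehicle replicate 1, against 12.9 to 14.0 CPM, and at 25.34 CPM in Isotype replicate 1, against 9.28 to 11.4 CPM. Isotype replicate 1 also held 4300 CPM of pancreatic transcripts. Vehicle replicate 1 and Isotype replicate 3 did not.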

How the results depend on the processing

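Of the 12 calls of members, 6 held in every alternative and 0 changed direction. All 60 group means moved by less than 1 SD with TMM scaling, and 9 of 30 correlations moved by 0.1 or more once group means were removed. Etv1 in Vehicle rests on 2 to 6 counts per library and Dusp4 in MEKi 1 on 1 to 11, which limits both. All values below that changed direction belong to effects that were not called, and their cause was not tested.

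With a replicate block over all groups, the counts were 4 members in Vehicle and 4 in Isotype against Normal, 0 at either dose against Vehicle, and no count of genes or members moved by over 1.5 times. Only MEKi 0.3 and Vehicle had every same-numbered correlation over 0.1, and there a block in a fit of those groups, added after the data were seen, called 405 genes and 0 members. In anti-TNF against Isotype, where 3 of 4 correlations were over 0.1, the block over all groups called 2 genes and 0 members; a block in a fit of those groups alone was not run.

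Genes called at 0.3 mg/kg against Vehicle were 3 with no filter, 0 with only the groups compared, 92 with DESeq2 and 3357 with limma-voom; members were 2 with limma-voom. At 1 mg/kg against Vehicle they were 773 genes with no filter and 4808 with limma-voom, and members were 1 with only the groups compared (2049 genes), 2 with DESeq2 (2234 genes) and 4 with limma-voom. Between doses DESeq2 called 2 genes. In Isotype against Normal, members were 7 with limma-voom (7303 genes) and 2 without the 4 antibody libraries named differently (4500 genes). In MEKi 1 against Normal, members were 1 with no filter and 1 at a mean of at least 5 CPM, where Dusp4 was not tested. In anti-TNF against Isotype, genes were 0 at a mean of at least 5 CPM, 0 with only the groups compared, 0 without the 4 libraries, 35 with limma-voom and 77 with DESeq2. In anti-TNF against Normal, members were 1 at a mean of at least 5 CPM, 1 without the 4 libraries and 5 with limma-voom, and genes were 803 without the 4 libraries and 6700 with limma-voom. For the difference of effects, genes were 0 without the 4 libraries, 7 with DESeq2 and 1407 with limma-voom, which called 2 members.

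Leaving out each library in turn gave 3 to 4 members and 5983 to 6614 genes in Vehicle against Normal, 3 to 5 and 4901 to 5798 in Isotype against Normal, 0 to 1 and 0 to 1130 at 0.3 mg/kg, 0 to 2 and 43 to 2369 at 1 mg/kg, 0 and 0 to 1 between doses, 0 and 1 to 34 in anti-TNF against Isotype, 1 to 2 and 1026 to 2085 in MEKi 1 against Normal, 0 to 5 and 1869 to 4831 in anti-TNF against Normal, and 0 and 2 to 5 for the difference of effects.

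At 0.3 mg/kg against Vehicle the log2 fold change of Spry4 was -0.0022 with RLE factors, -0.0077 with library size alone, -0.075 with the length and GC offset and -0.0021 with DESeq2, and -0.17 to 0.23 leaving out a library; that of Spred1 was -0.0038 with the offset and -0.0033 to 0.18 leaving out a library. At 1 mg/kg against Vehicle, limma-voom gave 0.065 for Dusp5 and 0.23 for Etv5, and leaving out a library gave -0.28 to 0.060 for Dusp5, -0.40 to 0.18 for Etv5 and -0.41 to 0.081 for Spry4. Between doses, leaving out a library gave -0.24 to 0.078 for Dusp6, -0.048 to 0.41 for Spry1, -0.093 to 0.20 for Spry2 and -0.12 to 0.50 for Etv1. In anti-TNF against Isotype, limma-voom gave -0.26 for Etv1 and -0.058 for Spry2, and leaving out a library gave -0.10 to 0.21 for Dusp6 and -0.19 to 0.47 for Etv1. Without the 4 antibody libraries, Dusp4 was at 0.033 in Isotype against Normal and the difference of effects of Spry1 at -0.0086; that of Dusp6 was -0.049 to 0.28 leaving out a library.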
